A study of Xenopus laevis with 20 samples.

Results

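This report concerns Smad1 and p300 occupancy in untreated, wild-type whole Xenopus laevis embryos at Nieuwkoop-Faber stage 20, measured by chromatin immunoprecipitation with sequencing (ChIP-seq). The members are the peaks of 2 deposited lists: 7976 Smad1 peaks and 4555 p300 intervals, 12531 of the 43980 regions in the 4 lists of the series. Every peak of each list was taken. Peaks with several summits in the p300 list were kept once, with the row of highest score, and a Smad1 peak and a p300 interval count as shared when they have at least 1 bp in common.

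The series holds 20 libraries, of which 4 come from whole embryos. The ChIP libraries of whole embryos were made with an antibody labelled Smad and with one against p300, and each has its own input library, which was not immunoprecipitated. The peak names of the Smad1 list speak of phosphorylated Smad1 and of a pooled experiment, although the labels give 1 library, and the p300 list is tied to 1 library. The remaining lists serve here as readouts that the comparison did not use. They are β-catenin and p300 in foregut and hindgut explants of wild-type embryos of the same stage, each list pooling 4 ChIP libraries treated with the vehicle DMSO or with 60 μM BIO, an inhibitor of the kinase GSK3.

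Smad1 is a transcription factor that is phosphorylated when BMP ligands bind their receptors, enters the nucleus with Smad4 and binds DNA at target genes. p300 is a histone acetyltransferase that does not read DNA sequence itself but is brought to enhancers and promoters by transcription factors, Smad proteins among them. p300 peaks are widely used to find active enhancers. BMP signalling patterns the dorsoventral axis of the amphibian embryo and later helps to pattern its gut tube. In a whole embryo all cell types are mixed, so a shared site need not be bound by both proteins in the same cell.

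The lists differ in how they were thresholded, and this bears on each share below. Smad1 peaks had a median width of 383 bp and a lowest −log10 q-value of 11.1, and p300 intervals had a median width of 118 bp and a lowest −log10 q-value of 1.30. The fold enrichment of each peak is the authors' ratio of ChIP signal over local background and was compared within a list only. Its median was 8.31 for Smad1 (range 2.62 to 46.6) and 5.41 for p300 (range 1.45 to 41.5). Of the Smad1 peaks, 415 (5.20%) lay on unplaced scaffolds, and of the p300 intervals 420 (9.22%). Each list is 1 call set without a replicate list, and read depth is unknown. Shares carry exact (Clopper-Pearson) 95% intervals that cover counting error only, and no p-value is given, because peaks are not replicates of an embryo.

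In the whole-embryo lists, p300 was present at a minority of Smad1 sites, whereas Smad1 was present at a larger share of p300 sites. A p300 interval overlapped 2094 Smad1 peaks, 26.3% of that list (interval 25.3 to 27.2). A Smad1 peak overlapped 2180 p300 intervals, 47.9% of that list (interval 46.4 to 49.3). These counts are nearly equal, so the order of the shares follows from the lengths of the lists (7976 and 4555). With the higher-scoring 50% of the p300 list, 14.1% of Smad1 peaks had p300. With the explant p300 list, which differs in tissue, treatment, length, width and threshold, the order of the shares turned: 59.0% of Smad1 peaks had p300, and Smad1 was present at 31.0% of those p300 peaks. That list, of 15146 peaks, is longer than the Smad1 list, and the turn follows from this. Most shared Smad1 peaks, 2011, held a single p300 interval, 80 held 2 and 3 held 3, and 0 p300 intervals touched more than 1 Smad1 peak. The p300 interval lay wholly inside the Smad1 peak in 1996 of 2180 pairs (91.6%). Few pairs depended on the edge of the overlap rule. A single Smad1 peak, of 7.55-fold enrichment, shared 10 bp or fewer with p300, and 2 Smad1 peaks, of 6.71-fold and 6.96-fold, missed a p300 interval by a gap of 100 bp or less.

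At shared sites the distance between summits is limited by the overlap itself, since most p300 intervals lie inside a Smad1 peak, and it is given as a description. The median distance from the Smad1 summit to the nearest p300 summit was 49 bp (interval of the median 46 to 51), with an interquartile range of 23 to 89 bp. Summits were within 25 bp at 27.5% of the 2094 sites, within 50 bp at 51.8%, within 100 bp at 79.6% and within 200 bp at 96.6%. Between peak midpoints the median distance was nearly the same, at 48 bp (46 to 52). The Smad1 summit fell inside the p300 interval at 1498 sites (71.5%, interval 69.6 to 73.5). The distance hardly varied with the strength of Smad1 binding. It had a median of 53 bp (46 to 58) in the top 10% of the Smad1 list by fold, 49 bp (46 to 52) in the upper 50% and 49 bp (43 to 54) in the lower 50%. With a β-catenin peak at the site it was 47 bp (45 to 50), and without one 53 bp (46 to 60), and these intervals overlap. To the explant p300 summits, the median distance was 29 bp (28 to 30), over the 4704 Smad1 peaks that overlap that list. This is a different set of sites, and the explant list has wider peaks (median 411 bp) and a stricter threshold (lowest −log10 q-value 20.0). The 2 distances are therefore not directly comparable.

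**Figure D1:**
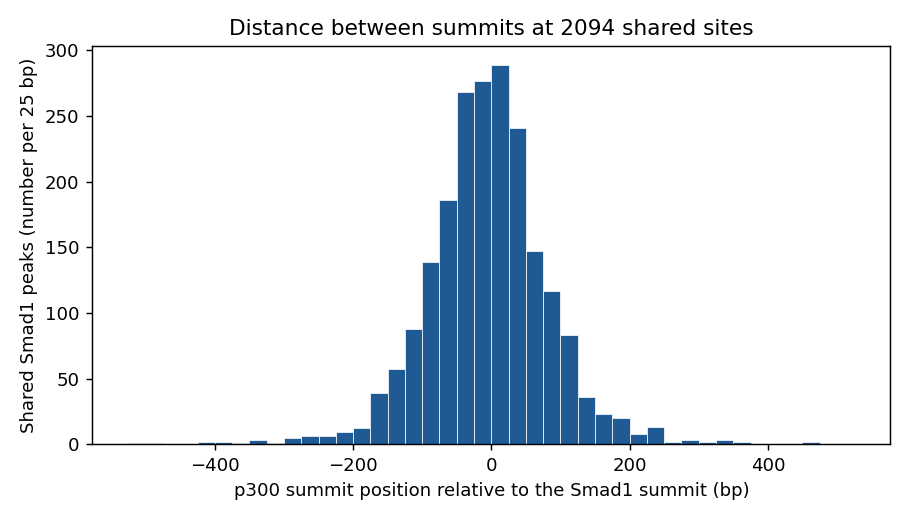
Position, relative to the Smad1 summit, of the nearest summit among the overlapped p300 intervals (x axis, bp) for the 2094 shared Smad1 peaks (y axis, number per 25 bp). The distribution is centred near 0, and 51.8% of the sites have summits within 50 bp on either side.

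As a set, Smad1 peaks with p300 had higher Smad1 folds than the rest of the list, with overlapping interquartile ranges. Their median Smad1 fold was 10.1 (interval of the median 9.94 to 10.4; interquartile range 7.75 to 13.8), against 7.96 (7.95 to 8.01; interquartile range 6.97 to 9.74) for the 5882 Smad1 peaks without p300. Of the shared peaks, 72.0% (interval 70.0 to 73.9) exceeded the median fold of the unshared ones. A fold above 20 was found at 166 of 2094 shared peaks (7.93%) and at 35 of 5882 unshared peaks (0.595%). Put the other way, 166 of the 201 Smad1 peaks above 20-fold (82.6%, interval 76.6 to 87.6) had p300, and so did 89 of the 100 with the highest fold.

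The share with p300 was highest at the top of the Smad1 list and then levelled off. It was 61.3% (interval 57.8 to 64.7) in the top 10% by fold, where Smad1 enrichment was 14.2-fold or more. The next 10% had 38.2%, and the sixth had 16.9%. From there on it was flat or slightly higher, at 14.9%, 14.6%, 16.4% and, in the lowest 10%, 20.1% (interval 17.3 to 23.0). The lowest 10% by fold also overlapped β-catenin (57.1%) and explant p300 (57.7%) more often than the 10% that ranked eighth (46.2% and 43.0%), and 63.1% and 59% of all Smad1 peaks did so. Ranked in place of fold by the authors' score, which rises with the significance of a peak, this rise was not seen, and the shares ran from 66.8% at the top to 12.4% (interval 10.2 to 14.9) at the bottom.

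In the p300 list the share by fold was not highest at the top, and it fell less steeply below. In the top 10% by p300 fold, 48.0% of intervals (interval 43.4 to 52.7) overlapped Smad1, close to the 47.9% of the whole list. At least 27 intervals of this top 10% lie in 3 clusters without Smad1, described below. The next 10% held the highest share, 57.6% (interval 52.9 to 62.2), and the lowest 10% the smallest, 29.9% (interval 25.7 to 34.3). The explant lists ran in the same order. β-catenin overlapped 49.6%, 56.9% and 31.2% of the top, next and lowest 10%, and explant p300 57.7%, 73.0% and 39.8%. Unplaced scaffolds held 16.0% of the top and 15.8% of the lowest 10%, against 9.22% of the list. Ranked by score, the share with Smad1 was 37.9% (interval 33.5 to 42.6) in the top 10% and 40.0% (interval 35.5 to 44.7) in the lowest, both below the whole list. The median p300 fold was 5.44 with Smad1 (interval of the median 5.44 to 5.52) and 5.18 without it (5.03 to 5.23), and 60.6% of shared intervals (interval 58.5 to 62.7) exceeded the median of the unshared ones. Shared intervals had folds of 3.35 to 19.6, and unshared ones were more widely spread, from 1.45 to 41.5.

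**Figure D2:**
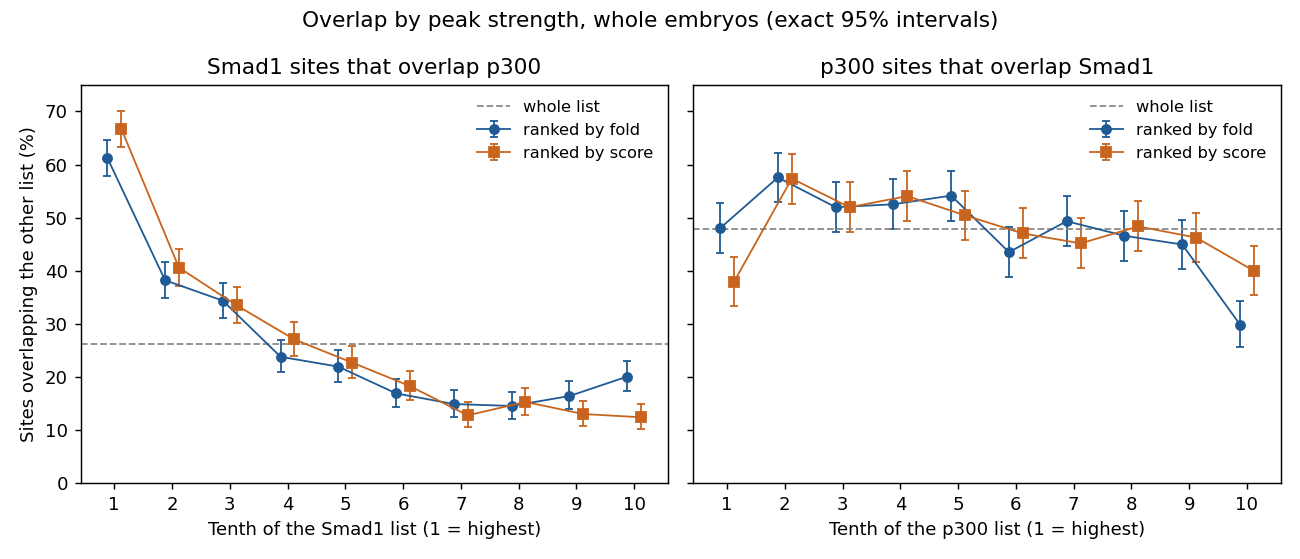
Share of sites that overlap the other list (y axis, %, exact 95% intervals) in each successive 10% of the Smad1 list (left) and of the p300 list (right), ranked by fold or by score, with the whole list dashed. Among Smad1 peaks ranked by fold the share is 61.3% in the top 10% and 20.1% in the lowest, while among p300 intervals it stays between 29.9% and 57.6%.

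**Figure D3:**
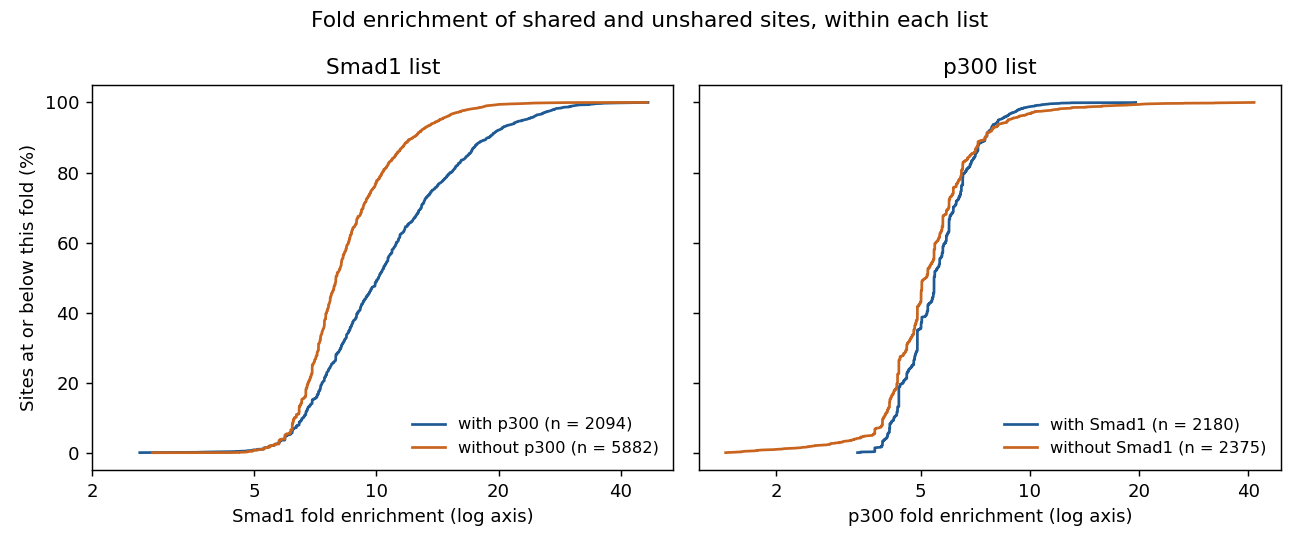
Cumulative share of sites (y axis, %) by fold enrichment (x axis, log scale) for shared and unshared Smad1 peaks (left) and p300 intervals (right). Shared Smad1 peaks lie to the right of unshared ones over most of the range, with medians of 10.1 and 7.96; the p300 curves run close together and cross above their medians of 5.44 and 5.18.

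Strength at shared sites was only weakly ordered between the proteins. Across the 2094 shared sites, Spearman's rho between Smad1 fold and the fold of the nearest p300 summit was 0.16, given as a description, since the sites come from a single pair of lists. In the 524 sites with the highest Smad1 fold (median 17.5) the median p300 fold was 5.98 (interval of the median 5.78 to 6.15), and in the 523 sites with the lowest (median 6.79) it was 5.27 (5.21 to 5.44). The p300 intervals were also wider in the first of these sets, with medians of 179 bp and 124 bp.

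The 5 Smad1 peaks of highest fold among those with p300 had p300 folds between 4.89 and 8.50. Coordinates are those of the deposited lists. No label or header states their assembly, and for that reason no gene is named and no sequence is shown. The leading peak, on chromosome 8L from 72101918 to 72103000, had 46.6-fold Smad1 enrichment and 8.50-fold p300 enrichment with summits 24 bp apart. On chromosome 3S, from 33505988 to 33507149, Smad1 was 42.3-fold and p300 7.98-fold enriched. The peak on chromosome 3L from 36631804 to 36632409 had 41.1-fold Smad1 and 7.61-fold p300 enrichment. On chromosome 6S, from 97525906 to 97526351, Smad1 was 38.7-fold and p300 6.53-fold enriched. At the fifth, on chromosome 1S from 16723954 to 16724846, Smad1 was 36.9-fold enriched but p300 only 4.89-fold, below the p300 list's median, and the summits were 228 bp apart. All 5 also overlapped β-catenin and explant p300, as did 93.99% and 87.2% of the top 10% of the Smad1 list.

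Sites near the top of both lists were found by adding the fold ranks of the lists. The first was on chromosome 2S from 63982113 to 63982746, with 30.0-fold Smad1 enrichment (rank 27) and 10.8-fold p300 enrichment (rank 76). The second was on chromosome 1S from 43734672 to 43735224, with 27.0-fold and 11.3-fold enrichment. At the third, on chromosome 5S from 92702611 to 92703056, the summits fell on the same base (0 bp apart), with 26.4-fold Smad1 and 10.8-fold p300 enrichment. On chromosome 6L, from 48417714 to 48418235, the summits were 2 bp apart, with 30.8-fold and 9.15-fold enrichment. The other sites of the leading 10 lay on chromosomes 9_10L, 7L, 7S, 8L and 9_10S and on 1 scaffold. All 10 overlapped β-catenin and explant p300, which is near the 93.99% and 87.2% of the top 10% of Smad1 peaks. Their Smad1 folds ran from 24.0 to 34.0 and their p300 folds from 8.70 to 11.3.

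How many strong Smad1 sites lacked p300 depended on the cut. Above 20-fold, 35 of 201 Smad1 peaks had no p300, whereas of the 798 with the highest fold only 489 had p300. The 2 Smad1 peaks of highest fold among those without p300 lay on unplaced sequences, and whether these are unique in the genome was not tested. These sequences held no whole-embryo p300 interval at all. The first, Scaffold32528 from 43 to 361, had 46.4-fold Smad1 enrichment and overlapped neither explant list, and the second, Scaffold36452 from 104 to 423, had 35.0-fold enrichment and overlapped both. The next 3 lay on chromosomes and overlapped β-catenin and explant p300. Smad1 was 29.7-fold enriched at chromosome 3L from 120011297 to 120011685, 28.2-fold at 7L from 73091098 to 73091456 and 27.5-fold at 5L from 36596437 to 36597052. The nearest whole-embryo p300 interval was 8885 bp, 11189 bp and 960593 bp away.

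The p300 intervals with the highest deposited folds were mostly without Smad1. None of the 14 p300 intervals above 20-fold overlapped a Smad1 peak, and of the 100 with the highest fold 25 did, against 47.9% of the list. Of these 14 intervals, 11 belonged to 3 tight clusters of at least 3 intervals with gaps of 5 kb or less, which together held 30 intervals and 27 of the top 100. The 14 are therefore not independent sites, and no interval is given for their share. Whether the sequence of the clusters is unique in the genome was not tested, so that their folds are given as deposited and not as a measure of p300 binding. On Scaffold20, 6 intervals between 1315746 and 1323422 had folds of 22.3 to 41.5. On chromosome 8L, 4 intervals between 2930164 and 2938690 had folds of 20.2 to 32.2. On chromosome 5S, 20 intervals between 81719243 and 81732583 had folds of 6.72 to 23.5. None of these 30 overlapped β-catenin or explant p300, whereas 48% of the whole list overlapped β-catenin and 61.3% explant p300. None overlapped Smad1 either, which was among the criteria for the clusters. Outside the clusters, 25 of the remaining 73 leading intervals (34.2%, interval 23.5 to 46.3) overlapped Smad1. Leaving out intervals without Smad1 can only raise this share, and it is given as a description.

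The 5 shared p300 intervals with the highest p300 folds ranked between 413 and 3854 in the Smad1 list by fold. The leading one, on chromosome 9_10S from 43624091 to 43624403, had 19.6-fold p300 and 16.9-fold Smad1 enrichment, with summits 4 bp apart. The next, on Scaffold42 from 1476449 to 1476575, had 19.2-fold p300 and 10.5-fold Smad1 enrichment. On chromosome 2S, from 40714666 to 40715064, p300 was 13.0-fold and Smad1 8.44-fold enriched. The interval on chromosome 3S from 8295866 to 8296075 had 12.9-fold p300 and 11.4-fold Smad1 enrichment, and the one on chromosome 4L from 130072957 to 130073384 had 12.2-fold p300 and 17.1-fold Smad1 enrichment. All 5 overlapped β-catenin, and all but the one on Scaffold42 overlapped explant p300, close to the 81.1% and 84.2% of all p300 intervals with Smad1.

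Shared sites were wider than unshared ones in both lists. The median Smad1 width was 440 bp with p300 (interval of the median 432 to 446) and 366 bp without (361 to 369), and the median p300 width was 141 bp with Smad1 (136 to 144) and 104 bp without (102 to 106). Among the 2659 narrowest Smad1 peaks 14.0% had p300, among those of middle width 26.0%, and among the 2658 widest 38.8% (interval 36.9 to 40.7). Width enters the overlap rule. With summits within 200 bp as the criterion, which does not use width, the shares were 14.0%, 25.8% and 36.3%. Within these classes of width, in which widths were not matched further, the share also differed by Smad1 fold. Among the widest peaks 45.4% (interval 43.1 to 47.7) of those in the upper 50% by fold had p300, against 24.7% (interval 21.9 to 27.8) in the lower 50%, and among the narrowest peaks the shares were 20.1% and 11.4%.

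Among p300 intervals, width separated shared from unshared sites more than fold did. Smad1 was present at 33.1% of the 1519 narrowest intervals (79 to 97 bp; interval 30.7 to 35.5), at 43.6% of those of middle width and at 66.9% of the widest (147 to 816 bp; interval 64.4 to 69.2). With summits within 200 bp as the criterion these shares were 30.7%, 41.5% and 63.9%. Among the narrowest intervals the upper and lower 50% by fold had the same share within counting error, 33.2% and 33.0%. Among the widest the shares were 71.6% and 58.4%. Intervals with several summits overlapped Smad1 at 117 of 158 (74.1%, interval 66.5 to 80.7), against 2063 of 4397 with 1 summit (46.9%, interval 45.4 to 48.4).

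β-catenin, the nuclear effector of Wnt signalling, and p300 in gut explants were both more frequent at Smad1 sites with whole-embryo p300 than at those without it. β-catenin overlaps 63.1% of all Smad1 peaks, and it was present at 1689 of 2094 with p300 (80.7%, interval 78.9 to 82.3) and at 3346 of 5882 without (56.9%, interval 55.6 to 58.2), an odds ratio of 3.16 (95% interval 2.80 to 3.56). With the explant p300 list in place of the whole-embryo one it was 5.44. Explant p300 overlaps 59% of all Smad1 peaks and was present at 1754 of 2094 with whole-embryo p300 (83.8%, interval 82.1 to 85.3) and at 2950 of 5882 without (50.2%, interval 48.9 to 51.4), an odds ratio of 5.13 (4.52 to 5.82). About as many Smad1 peaks without whole-embryo p300 thus had p300 in explants as lacked it there too.

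Among p300 intervals the comparison is between those with and without Smad1, so its odds ratios cannot be set against those above. The p300 list also has a looser threshold, and 1279 of the 2375 intervals without Smad1 overlapped no other list. β-catenin overlaps 48% of the whole-embryo p300 list and was present at 1769 of 2180 intervals with Smad1 (81.1%, interval 79.4 to 82.8), against 417 of 2375 without Smad1 (17.6%, interval 16.0 to 19.1). This corresponds to an odds ratio of 20.2 (17.4 to 23.5). Explant p300 overlaps 61.3% of the list and was present at 1836 of 2180 with Smad1 (84.2%, interval 82.6 to 85.7), against 958 of 2375 without (40.3%, interval 38.4 to 42.3), an odds ratio of 7.89 (6.85 to 9.09). The explant lists come from other tissues and pool vehicle with BIO, and these shares therefore do not show binding in the same cells.

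Split by both explant lists, the Smad1 peaks that met p300 most often were those with β-catenin and explant p300 together. Of 3707 such peaks 1505 (40.6%, interval 39.0 to 42.2) had whole-embryo p300. The share was 24.97% (interval 22.3 to 27.8) of 997 peaks with explant p300 but not β-catenin, 13.9% (interval 12.04 to 15.8) of 1328 with β-catenin but not explant p300, and 8.02% (interval 6.86 to 9.32) of 1944 with neither. The dependence on Smad1 fold was seen in each class. The upper and lower 50% of the list by fold had 47.1% and 28.6% with both explant lists, 33.0% and 20.7% with explant p300 alone, 18.3% and 10.2% with β-catenin alone, and 12.2% and 5.99% with neither.

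For p300 intervals the share is that with Smad1, and it was higher with β-catenin alone than with explant p300 alone. Of 1861 intervals with both explant lists 1582 (85.0%, interval 83.3 to 86.6) overlapped Smad1. The share was 57.5% (interval 52.0 to 63.0) of 325 intervals with β-catenin alone, 27.2% (interval 24.4 to 30.2) of 933 with explant p300 alone and 10.9% (interval 9.37 to 12.7) of 1436 with neither. Sites found in a single list made up 1788 Smad1 peaks (22.4%) and 1279 p300 intervals (28.1%). The median Smad1 fold was 11.2 (interval of the median 10.9 to 11.4) in the 1505 peaks that overlapped all other lists and 7.59 (7.51 to 7.67) in the 1788 that overlapped none. The median p300 fold was 5.64 (5.46 to 5.72) in the corresponding 1582 intervals and 5.05 (5.03 to 5.23) in the 1279.

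**Figure D4:**
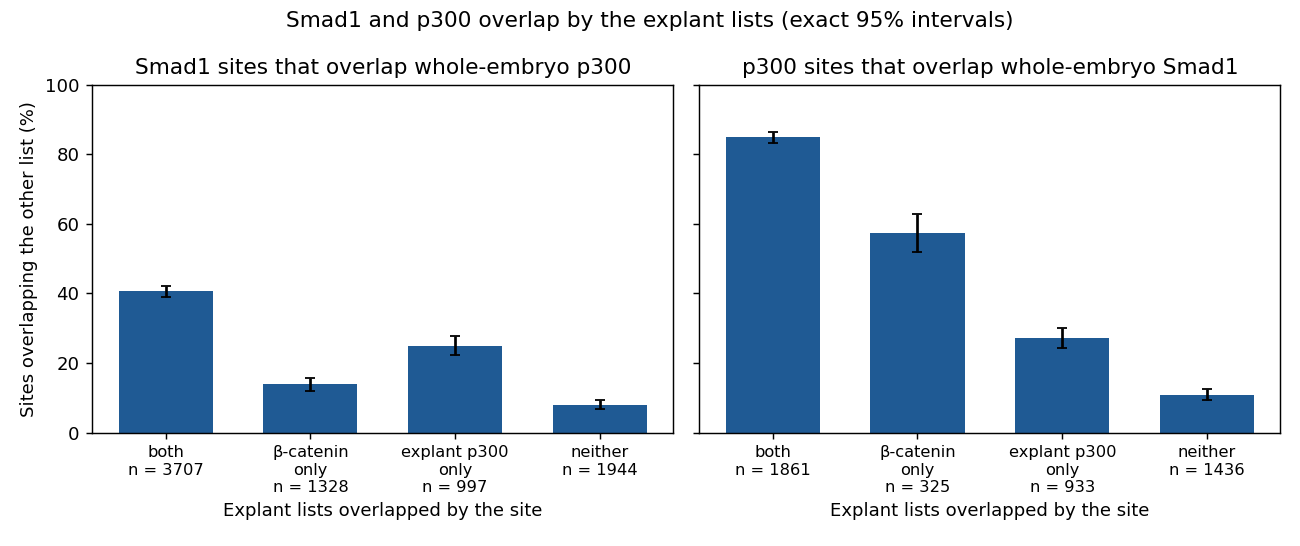
Share of Smad1 peaks that overlap whole-embryo p300 (left) and of whole-embryo p300 intervals that overlap Smad1 (right) on the y axis (%, exact 95% intervals), by the explant lists that the site also overlaps (x axis, number of sites below). Both panels are highest with both explant lists, at 40.6% and 85.0%, and lowest with neither, at 8.02% and 10.9%.

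Most unshared sites had no interval of the other list within 10000 bp, and the distances were not set against a reference. Among the 5882 Smad1 peaks without p300, 2.55% had a p300 interval within 1000 bp, 19.0% within 10000 bp and 55.0% within 100000 bp, and 108 lay on a sequence with no p300 interval. Among the 2375 p300 intervals without Smad1 the shares were 2.82%, 18.4% and 47.4%, and 187 lay on a sequence with no Smad1 peak. The median gap, where there was one, was 69932 bp from Smad1 to p300 and 91706 bp from p300 to Smad1. The near misses within 1000 bp were 150 Smad1 peaks and 67 p300 intervals, beside 2094 and 2180 that overlapped.

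Sites with neighbours in their own list were shared more often. With no other Smad1 summit within 10 kb, 22.9% of 4666 Smad1 peaks (interval 21.7 to 24.2) had p300. With 1 neighbour it was 29.2%, with 2 it was 33.5% and with 3 or more 33.9% (interval 29.8 to 38.3). For p300 the share with Smad1 was 41.2% of 3329 intervals without a neighbour (interval 39.5 to 42.9), 64.4% with 1, 73.0% with 2 and 64.3% with 3 or more (interval 55.3 to 72.6). The last of these classes holds the clusters without Smad1 described above. Neighbouring p300 intervals can also lie in the same Smad1 peak, as 80 Smad1 peaks held 2 of them and 3 held 3. Such p300 intervals are not independent sites. Smad1 peaks that held 2 or 3 p300 intervals were wide (median 621 bp) and strong (median fold 13.1, interval 10.8 to 14.2), compared with those that held 1 (435 bp and 10.1, interval 9.77 to 10.3). A wider peak has more room for several p300 intervals, so the difference in width is partly set by the overlap rule. Smad1 fold also rose with width over all Smad1 peaks (Spearman's rho 0.39).

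The overlap was spread over the whole genome. Xenopus laevis is allotetraploid and has 2 subgenomes, so that chromosomes come as long (L) and short (S) homologues. p300 was present at 25.8% of 4503 Smad1 peaks on L (interval 24.6 to 27.2) and at 27.2% of 3058 on S chromosomes (interval 25.6 to 28.8). Smad1 was present at 51.0% of 2383 p300 intervals on L (interval 49.0 to 53.1) and at 49.4% of 1752 on S (interval 47.0 to 51.7). The intervals of L and S overlap in both lists, and a difference between the copies was not tested. The S copy had the higher share in 6 of 9 chromosome pairs for Smad1 and in 3 of 9 for p300. Single chromosomes ran from 22.5% (5S) to 32.7% (7S) for Smad1 and from 40.2% (5S) to 57.7% (7S) for p300. Without its cluster of 20 intervals, the p300 share on 5S was 44.97% (interval 37.3 to 52.8), and leaving out intervals without Smad1 can only raise it. On unplaced scaffolds the p300 list met Smad1 less often, at 23.6% of 420 intervals (interval 19.6 to 27.9) against 50.3% of 4135 on chromosomes (interval 48.8 to 51.9). The Smad1 list met p300 at 23.6% of 415 peaks on scaffolds (interval 19.6 to 28.0) and at 26.4% of 7561 on chromosomes (interval 25.4 to 27.4), which overlap.

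**Figure D5:**
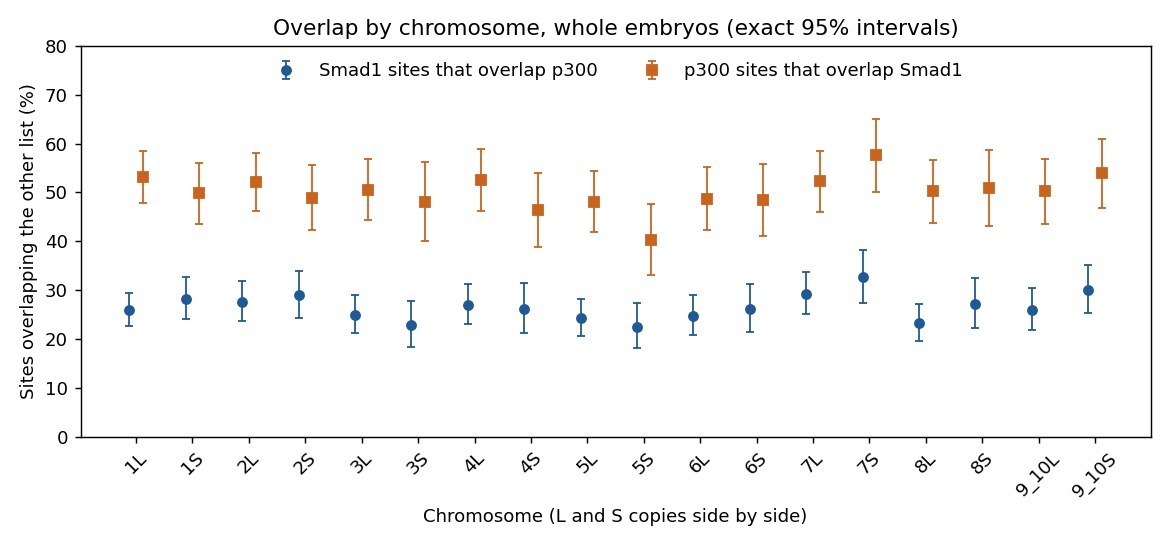
Share of Smad1 peaks that overlap p300 and of p300 intervals that overlap Smad1 (y axis, %, exact 95% intervals) on each of the 18 named chromosomes (x axis). Smad1 runs from 22.5% to 32.7% and p300 from 40.2% to 57.7%, lowest on 5S and highest on 7S in both. Both shares are counted from the same overlaps and are not independent of each other.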

How the data were processed

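The data are ChIP-seq peak lists in the layout of MACS2 narrow peaks, without headers. The submitters' processing notes list MACS2, Bowtie2, Picard, SAMtools, FastQC and Trimmomatic with neither roles nor versions (assembly: not given in the sources used here). Of the deposited columns, those used are position, score, fold (a ratio over local background), −log10 of the q-value, and summit. By its values the authors' score for p300 equals 10 times −log10 q to within 1 unit. The title of the Smad1 list names IDR, a filter on reproducibility between call sets, and that of p300 does not. Peak strength was ranked by fold, ties by score and then position. The p300 list had 172 repeated lines and 14 lines without a summit, for which the midpoint was taken.

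Samples were grouped by title, with 1 library per group. Overlaps, exact binomial intervals, order-statistic intervals of medians, odds ratios with log-normal intervals and Spearman's rho were computed with Python 3.11.15, pandas 2.3.3 and SciPy 1.17.1. The overlap code was tested on simulated data and against bedtools 2.31.1. Alternatives were the overlap rule, list length, sequences, p300 lines and widths, the explant p300 list, midpoints and, added after seeing the data, equal widths, score ranks and leaving out 3 p300 clusters. The clusters left out had at least 3 intervals, a fold above 20 and no Smad1 overlap. The sites named were the leading 10 by summed fold rank and the leading 5 of each list with and without the other protein; members and lists were chosen with earlier results of these data known, and clusters after their values were seen. Read depth is unknown. A gene table of assembly Xenopus_laevis_v10.1 reached over 1 Mb past the last peak on 18 of 18 chromosomes and was not used.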

Additional observations from a re-analysis of the deposited data

How the results depend on the processing

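Of 83 recomputed values under 12 settings, 63 stayed within the interval of the reported value (0.1 on either side for Spearman's rho), and 20 moved outside it. Some of the 63 could not move. The 3 clusters left out hold no Smad1, so values taken over Smad1 peaks or shared sites stayed the same. Restoring repeated p300 lines likewise cannot change which Smad1 peaks are shared. A change of direction was defined for the fold comparisons, Spearman's rho and the odds ratios, and 0 of those values changed direction. For the overlap shares and the summit distance no direction was defined. With the explant p300 list, which is longer than the Smad1 list, the order of the shares of the lists was turned. The share of Smad1 peaks with p300 moved to 21.6% with the higher-scoring 50% of each list, 14.1% with the higher-scoring 50% of p300 alone, as fewer intervals can be met, and 59.0% with the longer explant p300 list. The share of p300 intervals with Smad1 moved to 45.4% with summits within 200 bp, 38.7% and 50.4% with the same shortened lists, 50.3% on named chromosomes and 31.0% for the explant list. The median summit distance was 44.5 bp with the shortened p300 list and 29 bp with the explant list. The share of shared Smad1 peaks above the unshared median was 69.2% and 74.3% with the shortened lists, 67.0% with the explant list and 78.0% by score. For p300 it was 53.5% with the shortened p300 list, 68.6% for the explant list and 53.8% by score. The odds ratio of β-catenin was 2.78 with both lists shortened and 5.44 with the explant list, and that of explant p300 was 6.81 with the shortened p300 list; the cause of these shifts was not tested. Setting both lists to 400 bp gave 26.2% and 47.7%. No paired analysis was possible because each group has 1 library and no result comes from a test. Depth is unknown, so that sites missed by either list cannot be told from sites without binding.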

Other observations

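p300 intervals in runs overlapped Smad1 more often than single ones. With gaps of 5 kb or less, 155 of 234 intervals in clusters of 3 or more overlapped Smad1 (66.2%), against 1596 of 3681 single intervals (43.4%) and 47.9% of the list. In clusters of 2 the share was 67.0%. Explant p300 was also more frequent in clusters, at 58.1% of single intervals, 76.6% in clusters of 2 and 70.9% in clusters of 3 or more. There were 68 clusters of 3 or more, and 12 of them had no Smad1. Intervals of a cluster can lie in the same Smad1 peak and are not independent sites. Apart from the 3 clusters of high fold, the largest held 4 intervals each. On chromosome 9_10L from 13492584 to 13499157 all 4 intervals overlapped Smad1 and β-catenin, 3 overlapped explant p300, and their p300 folds were 4.46 to 11.03. On chromosome 4L from 91381641 to 91383247 all 4 overlapped Smad1 and β-catenin and 2 overlapped explant p300, with folds of 4.89 to 8.91. On chromosome 3S from 33567348 to 33571132 all 4 overlapped Smad1, β-catenin and explant p300, with folds of 4.11 to 6.86. On chromosome 1L from 22351216 to 22355749, 3 of 4 overlapped Smad1, 2 overlapped explant p300 and 0 overlapped β-catenin, with folds of 4.29 to 6.41. These clusters were chosen after their values were seen and carry no test.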
